A study of Bos taurus with 14 samples.

Results

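The miR-23, miR-24 and miR-27 microRNAs come from a pair of gene clusters, and 7 of the 932 miRNA names in the 14 libraries were chosen by name to stand for them. A further 4 names of the clusters in the files were not among those chosen. bta-miR-23a, bta-miR-27a-3p and hsa-miR-23a-5p stand for the miR-23a cluster, bta-miR-23b-3p, bta-miR-27b and bta-miR-24 (the 5′ arm of miR-24) for the miR-23b cluster, and bta-miR-24-3p is the 3′ arm made from both. The libraries held small RNA from the blood of ruminally cannulated, non-lactating adult Holstein cows in a study that looked for blood markers of subacute ruminal acidosis, a drop in rumen pH brought on by grain-rich feeding. Plasma of cows 1 to 4 and leucocytes (buffy coat) of cows 1, 3 and 4 were sequenced on the forage diet (FD, 0% concentrate) and during the first week on a grain-rich diet (HG, with 65% concentrate). This gave 4 libraries per diet in plasma and 3 in leucocytes. All cows received FD first, so diet and time cannot be told apart, and no group carried an allele or agent other than the diet. Plasma and leucocyte RNA were extracted with different kits, so the kit cannot be told apart from the sample type.

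Each cluster is transcribed as 1 long RNA from which the hairpins of a miR-23, a miR-27 and a miR-24 are cut. Dicer then releases a duplex from each hairpin. One strand, the guide, is loaded into an Argonaute protein and directs it to messenger RNAs that pair with the seed at the guide's 5′ end, and the other, the passenger strand, is mostly degraded. miR-23a and miR-23b share a seed, as do miR-27a and miR-27b, while the mature miR-24-3p of both clusters is the same, so its reads cannot be traced to one cluster. In blood and vessels these miRNAs are known as regulators of lymphocyte and myeloid differentiation and of endothelial cells, and miR-27 also as a regulator of lipid metabolism. In each of these hairpins the 3′ arm is the usual guide.

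The deposited places of the members are on the UMD3.1 build. On chromosome 7, minus strand, miR-23a was placed at 12982014 to 12982035 and miR-27a-3p at 12981844 to 12981863, 150 bases away. hsa-miR-23a-5p, a human name used where the bovine list has no such arm, was placed at 12981978 to 12981999, 14 bases from miR-23a. In these files the 5′ arm has the lower coordinate in 73 of 73 plus-strand and also in 54 of 54 minus-strand hairpins that list both arms, so positions within a minus-strand hairpin may be mirrored. On chromosome 8, plus strand, miR-23b-3p was at 83009652 to 83009674, miR-27b at 83009883 to 83009903, the 5′ arm miR-24 at 83010382 to 83010404 and miR-24-3p at 83010420 to 83010441. In the RefSeq annotation of another build, MIR23A, MIR27A and MIR24-2 lie within the protein-coding LOC132345691, and MIR23B, MIR27B and MIR24-1 within AOPEP, which encodes an aminopeptidase.

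Reads assigned to miRNAs numbered 376589 to 3090572 per library in FD plasma and 975513 to 4464701 in HG plasma. In leucocytes they numbered 21764578 to 66070773 on FD and 27548674 to 53606321 on HG, so low counts are far less certain in plasma. Reads carry no molecular identifier and are not independent molecules, so depth covers counting error only. The 5 erythrocyte miRNAs checked made up 4.70% to 12.6% of the reads in plasma and 21% to 37.5% in leucocytes. The 7 leucocyte miRNAs made up 1.89% to 3.54% in plasma and 2.42% to 3.69% in leucocytes, all of them present in every library. The leucocyte libraries therefore held more reads of the erythrocyte list than of the leucocyte list. The lists come from background knowledge, and whether their miRNAs are specific to a cell type was not tested here. The 2 endothelial and platelet miRNAs made up 0.317% to 0.716% in plasma and at most 0.0245% in leucocytes, and the liver miRNA miR-122 made up 0.666% to 8.28% in plasma and at most 0.00899% in leucocytes. In bulk RNA, fewer cells of a type and less RNA per cell cannot be told apart.

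How much of a member's reads belonged to it alone differed widely, and dividing shared reads exchanged some of the middle places in their order. A read that maps to several names or places counts in full at each in the undivided counts and as a fraction at each in the divided counts, which are used below unless stated. miR-23a-5p kept 100% of its reads after division, and miR-27a-3p and miR-27b kept 89.6% ± 4.72 and 94.3% ± 2.88 in plasma (SD, n = 8 libraries) and 98.6% ± 0.211 and 99.2% ± 0.197 in leucocytes (SD, n = 6). miR-24-3p kept 33.4% ± 0.0440 in plasma and 33.5% ± 0.0331 in leucocytes, so that nearly every one of its reads was divided. Where the rest was counted was not analysed here. The 5′ arm miR-24 kept 50% in every library, since hsa-miR-24-1-5p had the same reads in 14 of 14 libraries.

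**Figure D1:**
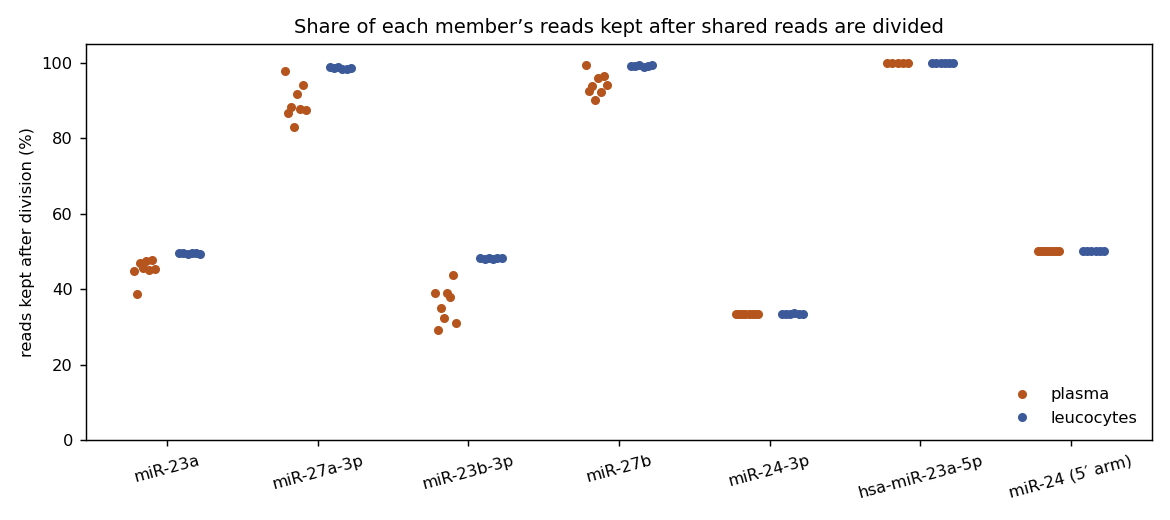
Percent of the undivided reads of each member that remained after shared reads were divided (y axis), with 1 point per library, in plasma (8 libraries, 5 for hsa-miR-23a-5p) and leucocytes (6 libraries). miR-24-3p sits near 33.4% in every library, while miR-23b-3p ranges from 29.1% to 43.6% in plasma and from 47.9% to 48.4% in leucocytes.

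Both miR-23 names shared their place with another name. miR-23a kept 45.2% ± 2.84 in plasma and 49.5% ± 0.0857 in leucocytes, and hsa-miR-23a-3p, listed 1 base shorter at the same start, held nearly the same undivided reads over the 14 libraries (1750223 against 1750253). miR-23b-3p kept 35.9% ± 4.87 in plasma and 48.2% ± 0.175 in leucocytes. bta-miR-10174-3p is listed at 83009652 to 83009675, the place of miR-23b-3p with 1 more base, and had the higher undivided count in 14 of 14 libraries, 606317 against 467257 reads in all. Of the divided reads of this pair, 38.5% ± 3.54 in plasma (SD, n = 8) and 37.5% ± 1.42 in leucocytes (SD, n = 6) stood under miR-23b-3p. The level printed for miR-23b-3p therefore leaves out the larger part of the reads placed there, and its ratios are also given with both names summed, a choice made after seeing the data. The level printed for miR-23a likewise leaves out the share counted under hsa-miR-23a-3p. That share was not added back, so divided ratios with miR-23a carry this limit.

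In plasma miR-24-3p was the member with the highest mean level, at 41306 ± 21816 CPM on FD and 35758 ± 16292 on HG (SD, n = 4; CPM are divided reads per 1000000 divided reads of a library). miR-27b followed at 23555 ± 2921 and 23771 ± 3493 CPM. miR-23a at 11455 ± 4481 and 11106 ± 3874 and miR-27a-3p at 10931 ± 2213 and 12397 ± 1879 CPM were next. By divided reads these neighbours did not differ beyond their spread. miR-24-3p and miR-27b overlapped as well by divided reads, since the 4 lowest miR-24-3p libraries had 16984 to 31873 CPM and miR-27b ranged from 19520 to 28498. With undivided reads, given below, both comparisons read otherwise. miR-23b-3p was lower, at 2823 ± 502 and 2633 ± 207 CPM. The 5′ arms were rare, with 25.9 ± 51.7 and 80.6 ± 16.8 CPM for miR-23a-5p and 45.6 ± 75.3 and 16.6 ± 10.3 for miR-24.

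In leucocytes the means of the 3′ arms lay closer together, with miR-24-3p again highest and miR-23b-3p lowest, and miR-23a above miR-27a-3p on both diets. On FD and HG they were 5021 ± 2417 and 3664 ± 1587 CPM for miR-24-3p (SD, n = 3), 4474 ± 1648 and 3483 ± 1322 for miR-27b, and 3433 ± 965 and 3001 ± 222 for miR-23a. miR-27a-3p had 2769 ± 628 and 1737 ± 202 CPM and miR-23b-3p 945 ± 456 and 840 ± 353. Among these, the differences between miR-24-3p, miR-27b and miR-23a lay within their spread by divided reads. miR-23a-5p had 6.45 ± 3.89 and 8.06 ± 2.88 CPM and the 5′ arm miR-24 had 7.16 ± 3.01 and 7.5 ± 4.14. By CPM cow 4 was the highest of the 3 cows for each member on each diet.

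**Figure D2:**
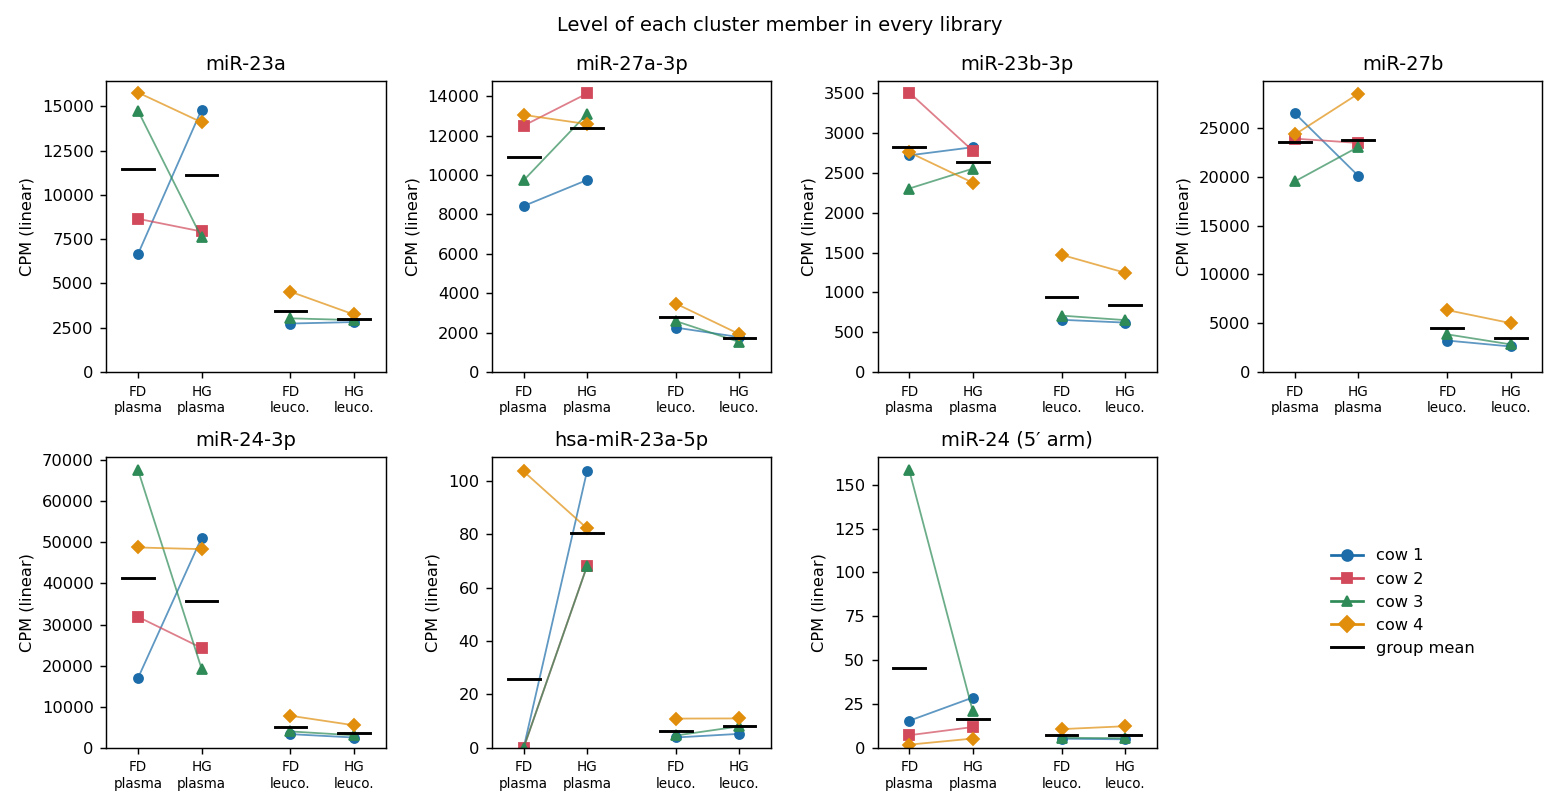
CPM of each of the 7 members (y axis, linear, from 0) in plasma and leucocytes on FD and HG, with a point per library, lines joining the libraries of 1 cow and black bars for the group means. In plasma miR-23a and miR-24-3p spread widely, with cow 1 rising and cow 3 falling between the diets, and in leucocytes cow 4 has the highest points.

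The order depended on the counts used. With undivided reads miR-24-3p ranked 1st of 530 names in FD plasma and 4th of 625 in HG plasma, against 5th in both with divided reads. In leucocytes it ranked 29th and 36th with undivided and 41st and 46th with divided reads. Undivided reads of miR-24-3p made up 3.94% to 15.1% of all assigned reads in FD plasma, 4.53% to 11% in HG plasma and 0.645% to 1.96% in leucocytes. Those of miR-27b made up 1.49% to 2.30% in plasma and 0.230% to 0.537% in leucocytes, so by undivided reads miR-24-3p and miR-27b did not overlap. miR-27a-3p stood below miR-23a in plasma, at 6370 against 13220 on FD and 7077 against 12257 on HG per 1000000 undivided counts. With undivided reads miR-23a stood above miR-27b in FD plasma, with 13220 against 12851 per 1000000 undivided counts summed over all names, and in HG plasma it stood below it, with 12257 against 12917.

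The comparison between diets in plasma asked whether the members moved with the grain-rich diet, and none passed the test. With edgeR 0 of 7 members had an adjusted p under 0.05, and 0% of all 538 names tested did. At an unadjusted p under 0.05 there were 1 member and 55 names (10.2%), and DESeq2 called 1 member and 12 names. The members' log2 fold changes (HG over FD) had a median of -0.39, beside 0.25 over all names, and 6 of 7 were below 0. With scaling by library size alone the median over all names was 0.67, and miR-27a-3p, miR-27b and the 5′ arm miR-24 then had values above 0, so no direction is read from these small differences.

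miR-24-3p and miR-23a showed why the plasma means are so uncertain. On FD cows 1 to 4 had 16984, 31873, 67605 and 48764 CPM of miR-24-3p, and on HG they had 51085, 24308, 19281 and 48359. Cow 1 thus moved from the lowest to the highest place and cow 3 from the highest to the lowest, while cows 2 and 4 moved little. The log2 fold change was -0.64 (SE 0.783, edgeR adjusted p = 0.95). For miR-23a the same cows had 6663, 8648, 14739 and 15771 CPM on FD and 14803, 7932, 7594 and 14097 on HG, with the same crossing of cows 1 and 3. Its log2 fold change was -0.48 (SE 0.626, adjusted p = 0.95).

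This split followed the number of reads. The 4 plasma libraries with the fewest reads (FD of cows 1 and 2, HG of cows 2 and 3; at most 1428225 reads) were the 4 lowest for both miR-23a, at 8648 CPM or less against at least 14097 in the others, and miR-24-3p, at 31873 or less against at least 48359. In those 4 libraries the erythrocyte miRNAs made up 12.1% to 12.6% of the reads, and in the other 4 they made up 4.70% to 8.05%. By plain CPM the other 3′ arms did not follow this order. Only 2 of the 4 libraries with the fewest reads were among the 4 lowest for each of miR-27a-3p, miR-23b-3p and miR-27b. This contrast was not examined on the TMM scale of the diet test and can differ there. The TMM factors were 1.325, 0.824, 1.27 and 1.42 in the 4 libraries with the fewest reads and 0.681 to 1.04 in the other 4. Cows 2 and 4, whose FD and HG libraries fell in the same set, had 8648 and 7932 CPM and 15771 and 14097 CPM of miR-23a on FD and HG. The part of depth or of erythrocyte RNA in the diet comparison was not tested.

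**Figure D3:**
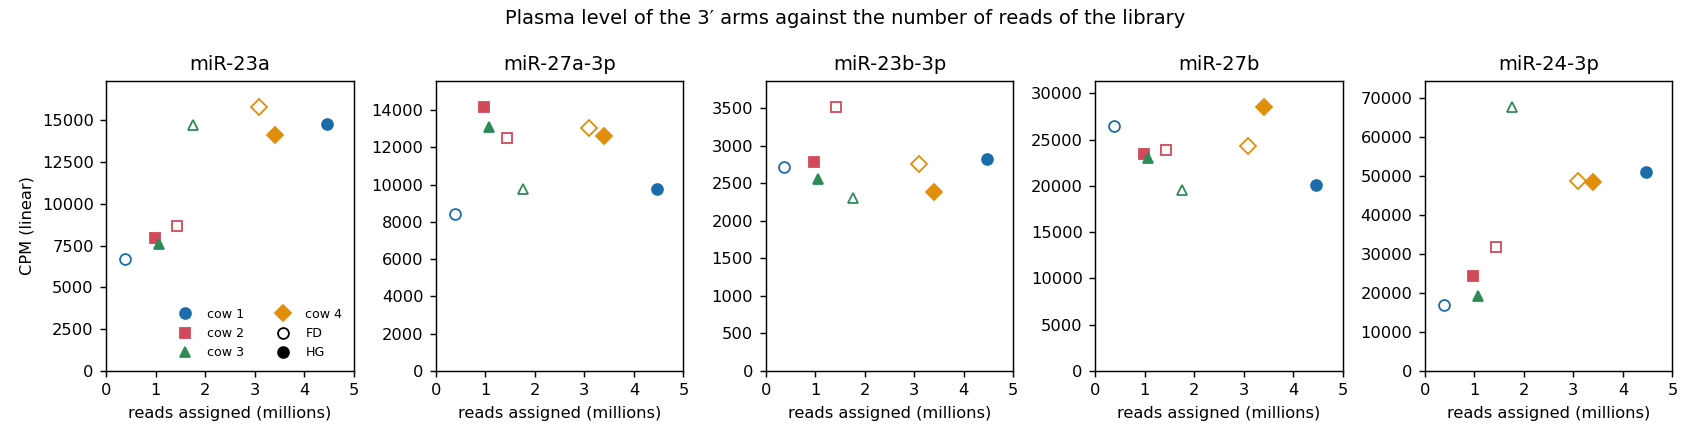
CPM of the 5 members that are 3′ arms in plasma (y axis, linear, from 0) against the reads assigned in the library (x axis, in units of 1000000 reads), with open symbols for FD, filled for HG and 1 symbol shape per cow. For miR-23a and miR-24-3p the 4 libraries with the fewest reads lie below the other 4, and for miR-27a-3p, miR-23b-3p and miR-27b they do not.

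Over the 8 plasma libraries the log2 CPM of miR-23a and miR-24-3p had a Pearson r of 0.96, while the remaining pairs of 3′ arms had r between -0.41 and 0.24. This is a description of libraries that share depth and reads. By plain CPM miR-23a thus varied with miR-24-3p but not with miR-27a-3p of its own transcript, for which r was -0.02. The TMM factors of the plasma diet test ran from 0.681 to 1.42. On that scale r was not computed and can differ, so no lack of a link between miR-23a and miR-27a-3p is read from it. In leucocytes all pairs had r from 0.59 to 0.99 over 6 libraries of 3 cows, lowest for miR-27a-3p with miR-23b-3p and highest for miR-27b with miR-24-3p.

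By plain CPM miR-27a-3p and miR-27b varied less relative to their means in plasma than miR-24-3p and miR-23a did. The fold changes below are on the TMM scale, where this spread was not examined. miR-27a-3p had 8428, 12508, 9733 and 13054 CPM on FD and 9750, 14142, 13108 and 12586 on HG in cows 1 to 4. The groups overlapped, and the log2 fold change was -0.22 (SE 0.423, adjusted p = 0.95), although the plain CPM was higher on HG in 3 of 4 cows. miR-27b had 26488, 23893, 19520 and 24320 CPM on FD and 20079, 23455, 23051 and 28498 on HG, with a log2 fold change of -0.39 (SE 0.379, adjusted p = 0.94). miR-23b-3p had 2721, 3510, 2305 and 2758 CPM on FD and 2823, 2779, 2554 and 2378 on HG, with a log2 fold change of -0.50 (SE 0.464, adjusted p = 0.94). For bta-miR-10174-3p at the same place the value was -0.50 (SE 0.450, adjusted p = 0.94).

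The passenger arm miR-23a-5p was found in every HG plasma library but in 1 of 4 on FD. Cows 1 to 4 had 0, 0, 0 and 236 reads on FD and 330, 52, 57 and 212 on HG. The 3 FD libraries without a read of it held 4341, 25027 and 41156 undivided reads of miR-23a, and the HG libraries of cows 2 and 3 held 13452 and 13324. The FD library of cow 1 was also the one with the fewest reads of all, and the part of depth in these zeros was not tested. Where found in plasma it came from 1 or 2 distinct read sequences, against 5 to 12 in leucocytes. The smallest count in the files was 2, so a single read would not be listed. The log2 fold change was 6.0 (SE 2.43, edgeR unadjusted p = 0.040, adjusted p = 0.45), higher in 3 of 4 cows. Without cow 4 it was 9.25 (adjusted p = 0.27), and without one of the others it was 4.92 to 5.03. Without cow 4 no FD library held a read of it, so that this fitted value depends on the prior count and is no bound. DESeq2 gave 6.58 with an adjusted p of 0.0140, while without the pairing by cow edgeR gave 0.92 (adjusted p = 0.82). The adjusted p ranged from 0.0140 to 0.82 over the alternatives.

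As a share of both arms of miR-23a (undivided reads), miR-23a-5p made up 0.0747% ± 0.149 on FD and 0.352% ± 0.0703 on HG in plasma (SD, n = 4). In leucocytes it made up 0.0878% ± 0.0271 and 0.131% ± 0.0377 (SD, n = 3). The log2 ratio of miR-23a-5p to miR-23a differed between the diets by 5.11 ± 3.84 in plasma (SD, n = 4 cows; exact two-sided sign-flip permutation test, p = 0.25, adjusted p = 0.75), higher on HG in 3 of 4 cows. In cow 4, the only cow with reads on both diets, it differed by -0.17. In leucocytes this log2 ratio lay above its FD value in each of the 3 cows, by 0.58 ± 0.240 (SD, n = 3 cows; exact p = 0.25, the smallest that 3 cows allow, adjusted p = 0.35).

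The 5′ arm miR-24 was scattered in plasma, with 9, 16, 414 and 8 undivided reads on FD and 182, 18, 35 and 27 on HG in cows 1 to 4. The FD library of cow 3, which also had the most miR-24-3p by CPM, held most of the FD reads. The log2 fold change was -0.16 (SE 1.36, adjusted p = 0.98). In leucocytes it had 389 to 585 reads on FD and 364 to 577 on HG, and a log2 fold change of 0.02 (SE 0.208, adjusted p = 0.98). Of its own reads and those of miR-24-3p together, it made up 0.0974% ± 0.00659 on FD and 0.133% ± 0.0153 on HG in leucocytes (undivided reads, SD, n = 3). The groups did not overlap, but for what share of other hairpins this held was not counted. miR-24-3p comes from both clusters, so this is not a share within 1 hairpin. In leucocytes miR-24-3p itself had a log2 fold change of -0.42 (edgeR adjusted p = 0.12).

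The comparison between diets in leucocytes gave 1 call among the members, miR-27a-3p, which fell on HG. With edgeR 15 of 782 names (1.92%) passed an adjusted p of 0.05, 12 of them lower on HG (1.53%), and miR-27a-3p was the 12th by p. It had 2254, 2583 and 3469 CPM on FD and 1771, 1520 and 1920 on HG in cows 1, 3 and 4. All HG libraries lay below all FD libraries, as for 6.52% of the names tested, and each of the 3 cows fell. The log2 fold change was -0.64 (SE 0.135, adjusted p = 0.0313), that is 0.640-fold.

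The call rests on few cows. The adjusted p was 0.23 without cow 1, 0.99 without cow 3, 0.000501 without cow 4, 0.73 without the pairing by cow and 0.0549 with DESeq2's size factors, and the log2 fold change stayed between -0.75 and -0.54. The erythrocyte miRNAs made up 27.6%, 26.0% and 21% of the reads on FD and 27.7%, 24% and 37.5% on HG in these cows, higher on HG in 2 of 3. The leucocyte miRNAs made up 3.07%, 2.97% and 3.69% on FD and 2.62%, 3.44% and 2.42% on HG, lower on HG in 2 of 3, and the endothelial and platelet miRNAs made up 0.00543%, 0.00770% and 0.0245% on FD and 0.00537%, 0.00674% and 0.0122% on HG, lower in 3 of 3. The part of these lists in the values of miR-27a-3p, miR-24-3p and miR-27b was not tested.

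The other 3′ arms lay lower on HG in leucocytes without passing the test. miR-24-3p had 3309, 3967 and 7785 CPM on FD and 2489, 3032 and 5470 on HG in cows 1, 3 and 4, lower in 3 of 3, with a log2 fold change of -0.42 (SE 0.121, adjusted p = 0.12). DESeq2 gave an adjusted p of 0.0472 and the fit without cow 4 gave 0.0153. miR-27b had 3223, 3856 and 6342 CPM on FD and 2616, 2829 and 5005 on HG, lower in 3 of 3, with a log2 fold change of -0.35 (SE 0.123, adjusted p = 0.19, and 0.0254 without cow 4). In both, cow 4 on HG stood above cows 1 and 3 on FD, so the groups overlapped, and the difference appears only within cows.

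Both miR-23 members differed less between the diets. miR-23a had 2735, 3030 and 4534 CPM on FD and 2821, 2933 and 3249 on HG, with a log2 fold change of -0.15 (SE 0.134, adjusted p = 0.67). miR-23b-3p had 656, 708 and 1472 CPM on FD and 621, 652 and 1247 on HG, with a log2 fold change of -0.14 (SE 0.112, adjusted p = 0.63), and bta-miR-10174-3p gave -0.18 (SE 0.117, adjusted p = 0.54). miR-23a-5p had 218, 221 and 200 reads on FD and 243, 268 and 258 on HG, higher in 3 of 3 cows by a log2 fold change of 0.43 (SE 0.221, adjusted p = 0.42, and 0.0244 without cow 4). On the TMM scale 4 of 7 members were lower on HG in all 3 cows, as were 19.3% of the names tested, and 1 was higher in all 3, as were 19.8%. The members' median log2 fold change was -0.15, beside -0.01 over all names.

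**Figure D4:**
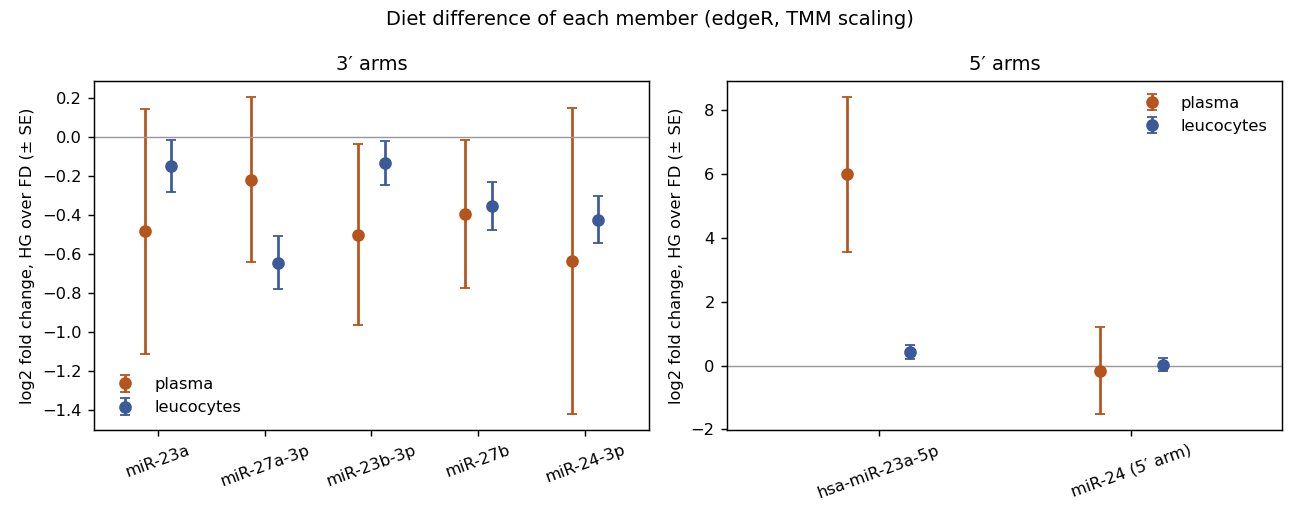
Log2 fold change of HG over FD for each member (y axis, edgeR with TMM scaling, ± SE derived from the F statistic) in plasma (8 libraries) and leucocytes (6 libraries). The 3′ arms are on the left and the 5′ arms on the right on a wider axis. In leucocytes miR-27a-3p lies lowest at -0.64, and in plasma the SE of each 3′ arm is at least 0.379.

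Whether a member's diet difference itself differed between plasma and leucocytes was tested in cows 1, 3 and 4. With edgeR 0 of 7 members and 0 of 797 names (0%) had an adjusted p under 0.05, with 93 names at an unadjusted p under 0.05 and 15 names called by DESeq2, none of them a member. The members' adjusted p was 0.81 to 1. For miR-27a-3p the plasma log2 fold change minus that in leucocytes was 0.35 (SE 0.471), so the fall in leucocytes was not shown to differ from plasma.

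The ratio of members within a library does not depend on scaling between libraries, and for members of 1 transcript it compares products of the same RNA. Of the 7 ratios tested, 5 moved the same way in all 3 cows in leucocytes and 0 moved the same way in all 4 cows in plasma. With random signs a ratio would move alike in all cows with a probability of 0.25 for 3 cows and 0.125 for 4. The ratios also share members and are not independent, so these counts are not compared between plasma and leucocytes. With 3 cows the exact two-sided sign-flip test cannot fall below p = 0.25, or 0.125 with 4, so none of these ratios could pass.

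In leucocytes miR-27a-3p lay lower on HG relative to miR-23a of its own transcript. Cows 1, 3 and 4 had ratios of 0.824, 0.853 and 0.765 on FD and 0.628, 0.518 and 0.591 on HG, and the diets did not overlap. The log2 ratio differed by -0.49 ± 0.194 (SD, n = 3 cows; exact p = 0.25, adjusted p = 0.35). Relative to miR-27b, miR-27a-3p had 0.699, 0.670 and 0.547 on FD and 0.677, 0.537 and 0.384 on HG. That log2 ratio differed by -0.29 ± 0.234 (exact p = 0.25, adjusted p = 0.35), with cow 1 almost level at -0.05.

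In the miR-23b cluster the ratio of miR-27b to miR-23b-3p was 4.91, 5.44 and 4.31 on FD and 4.21, 4.34 and 4.01 on HG in these leucocytes. It was lower on HG in 3 of 3 cows, by a log2 difference of -0.22 ± 0.113 (exact p = 0.25, adjusted p = 0.35), and with bta-miR-10174-3p added to miR-23b-3p the difference was -0.19 ± 0.136. miR-24-3p against the sum of both miR-23 members gave -0.28 ± 0.174 (exact p = 0.25, adjusted p = 0.35), lower in 3 of 3. Against the sum of both miR-27 members miR-24-3p gave 0.03 ± 0.138 (exact p = 1), and miR-23a against miR-23b-3p gave -0.01 ± 0.198 (exact p = 1), each with cows in both directions.

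**Figure D5:**
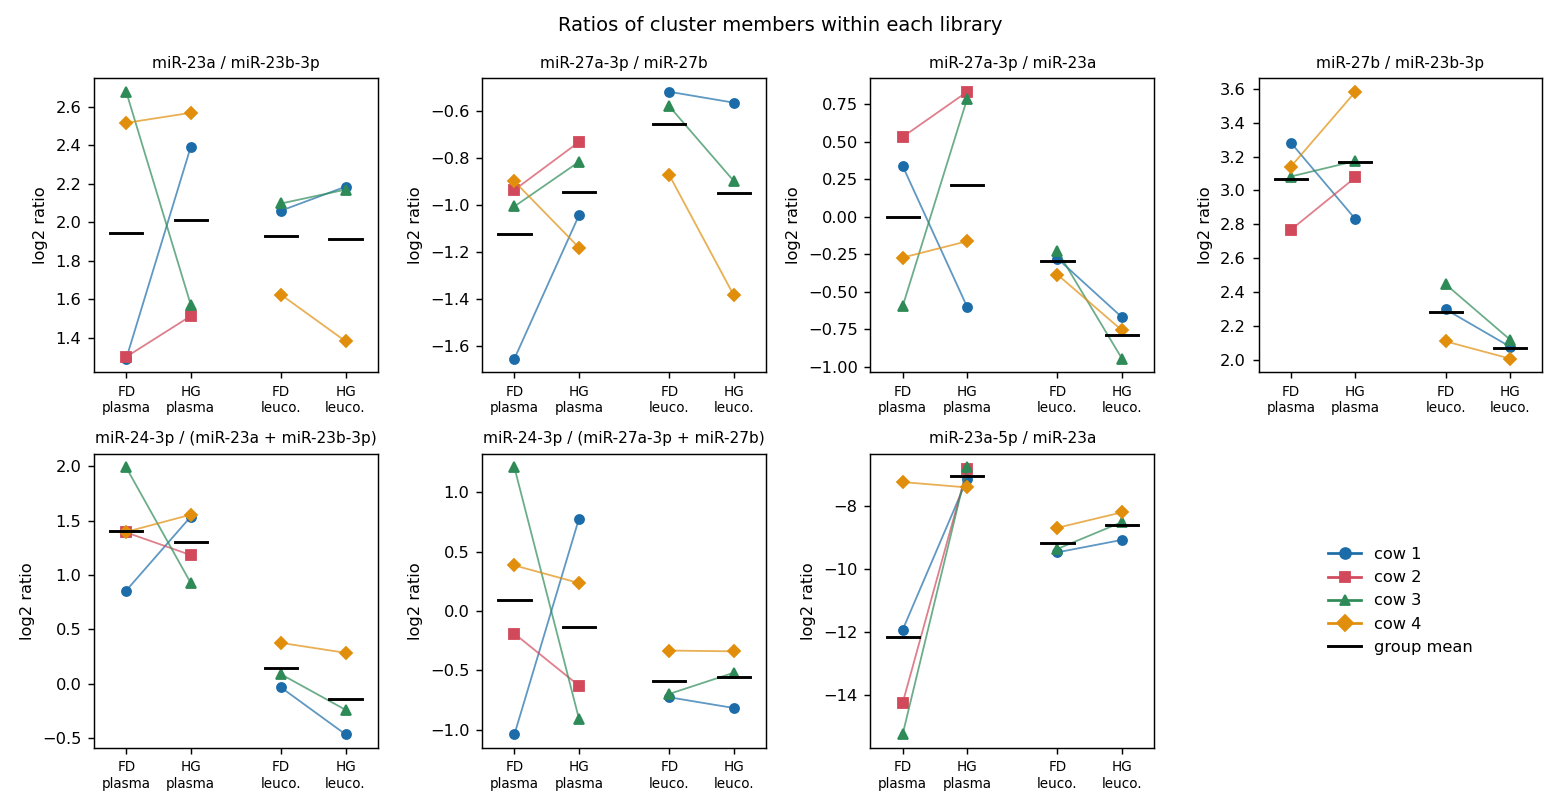
Log2 ratios of members within each library (y axes, each panel with its own range) for plasma and leucocytes on FD and HG, with lines joining the libraries of 1 cow and black bars for group means. In leucocytes miR-27a-3p over miR-23a is lower on HG in all 3 cows, and miR-24-3p over the sum of both miR-23 members lies higher in all 8 plasma than in all 6 leucocyte libraries.

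In plasma the same ratios crossed. miR-27a-3p to miR-23a was 1.26, 1.45, 0.660 and 0.828 on FD and 0.659, 1.78, 1.73 and 0.893 on HG in cows 1 to 4, a log2 difference of 0.21 ± 0.953 (SD, n = 4 cows; exact p = 0.625, adjusted p = 0.75). miR-24-3p to the sum of both miR-27 members differed by -0.22 ± 1.61 (exact p = 0.625, adjusted p = 0.75), from -2.12 in cow 3 to 1.82 in cow 1. miR-27b to miR-23b-3p, by contrast, differed by 0.10 ± 0.394 (exact p = 0.75). The remaining diet differences in plasma were 0.06 ± 0.906 for miR-23a to miR-23b-3p (exact p = 0.75), 0.18 ± 0.364 for miR-27a-3p to miR-27b (exact p = 0.50) and -0.11 ± 0.733 for miR-24-3p to the sum of both miR-23 members (exact p = 0.75). Each lay within its spread.

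The comparison of plasma with leucocytes of the same cows asked how the members are divided between the fluid and the cells. By plain CPM each 3′ arm was higher in plasma than in leucocytes, and no plasma library overlapped a leucocyte library, with miR-24-3p at 16984 to 67605 against 2489 to 7785 CPM. For what share of all names this held by plain CPM was not counted, so it is not read as a trait of the members. On the TMM scale of edgeR, 2 of 7 members were called higher in plasma on FD, where 145 of 745 names (19.5%) passed and 8.05% passed as higher, and 1 of 7 on HG, where 325 of 729 names (44.6%) passed and 10.3% as higher. On that scale the plasma libraries lay above all leucocyte libraries for 4 of 7 members on FD, as for 16% of names, and for 2 of 7 on HG, as for 17.6%. miR-24-3p had a log2 fold change of 2.33 on FD (SE 0.457, adjusted p = 1.19e-05) and 1.42 on HG (SE 0.517, adjusted p = 0.0184), higher in 3 of 3 cows on each. miR-27b had 1.73 on FD (SE 0.450, adjusted p = 0.00208) and 0.86 on HG (SE 0.486, adjusted p = 0.13), again higher in 3 of 3 on each.

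For the other members the values on FD and HG were 1.20 and 0.79 for miR-27a-3p (adjusted p = 0.0543 and 0.15), 1.09 and 0.00 for miR-23a (0.0785 and 0.999) and 0.84 and -0.27 for miR-23b-3p (0.26 and 0.64). miR-23a-5p had -1.79 on FD and 1.46 on HG (adjusted p = 0.57 and 0.17), and the 5′ arm miR-24 had 0.62 and -0.77 (0.79 and 0.65). The members' median was 1.09 on FD and 0.79 on HG, beside -1.72 and -1.79 over all names, and miR-23a-5p on FD lay below that middle. All names include many with few reads, plasma libraries were far shallower, and no names of like level were set beside the members. The gap between these medians is therefore not read as enrichment of the clusters in plasma.

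These sizes depend on the scaling and on single cows. With library size alone the median over all names moved to -1.05 on FD and 0.19 on HG, and calls went from 60 higher and 85 lower to 77 and 19 on FD, and from 75 and 250 to 176 and 32 on HG (86 and 158 with DESeq2's size factors). The number of members called was then 4 of 7 on FD and 6 of 7 on HG, against 1 of 7 and 4 of 7 with DESeq2 and 2 of 7 and 3 of 7 with its size factors in edgeR. With library size miR-23a and miR-23b-3p had 1.96 and 1.70 on HG. Without cow 1 or without cow 3 the adjusted p of miR-24-3p on FD was 0.14 or 0.13, on HG it was 0.0672 without cow 1 and 0.20 without cow 4, and for miR-27b on FD it was 0.20, 0.20 and 0.0594 without cow 1, 3 or 4 and 0.0785 with DESeq2.

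Within libraries, miR-24-3p took a larger place among the members in plasma. Its ratio to the sum of both miR-23 members was 1.81 to 3.97 in 8 plasma libraries (median 2.63) and 0.723 to 1.30 in 6 leucocyte libraries (median 1.02), with no overlap. Averaged over both diets within a cow, plasma minus leucocytes was 1.38 ± 0.204 on the log2 scale (SD, n = 3 cows, higher in 3 of 3; exact p = 0.25, adjusted p = 0.44). With undivided reads the ranges were 2.33 to 5.33 and 1.06 to 1.90, and with bta-miR-10174-3p added they were 1.18 to 3.26 and 0.563 to 0.892, again without overlap. Against the sum of both miR-27 members the ratio overlapped, at 0.486 to 2.31 and 0.567 to 0.794, although the mean difference within cows was 0.68 ± 0.0675, higher in 3 of 3 (exact p = 0.25, adjusted p = 0.44).

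miR-27 also stood higher against miR-23 in plasma. miR-27b to miR-23b-3p was 6.81 to 12 in plasma and 4.01 to 5.44 in leucocytes, and the log2 difference was 1.01 ± 0.258 (higher in 3 of 3 cows; exact p = 0.25, adjusted p = 0.44). With bta-miR-10174-3p added the ranges were 2.66 to 5.06 and 1.46 to 2.07, while with undivided reads they were 2.14 to 4.08 and 1.95 to 2.64 and overlapped. miR-27a-3p to miR-23a differed by 0.46 ± 0.193, higher in 3 of 3 cows (exact p = 0.25, adjusted p = 0.44), with overlapping ranges of 0.659 to 1.78 and 0.518 to 0.853. With undivided reads these ranges were 0.340 to 0.914 and 0.261 to 0.428, so which of miR-27a-3p and miR-23a stands higher in plasma depends on the division. The members that share a seed did not differ in 1 direction, with 0.25 ± 0.697 for miR-23a to miR-23b-3p (exact p = 1) and -0.30 ± 0.461 for miR-27a-3p to miR-27b (exact p = 0.50).

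The names whose pattern was most like a member were sought by Pearson r of log2 TMM CPM, among 145 names in plasma (8 libraries) and 337 in leucocytes (6 libraries) with at least 100 divided reads in every library. In plasma these were bta-miR-652 for miR-23a (r = 0.96), bta-miR-10b for miR-27a-3p (r = 0.97), bta-miR-22-3p for miR-23b-3p (r = 0.91), bta-miR-375 for miR-27b (r = 0.96) and bta-miR-151-3p for miR-24-3p (r = 0.96). In leucocytes bta-miR-126-5p, an endothelial and platelet miRNA, came first for both miR-24-3p (r = 0.97) and miR-27b (r = 0.93), bta-miR-31 for miR-23a (r = 0.97), bta-miR-29b for miR-27a-3p (r = 0.95), and bta-miR-10174-3p for miR-23b-3p (r = 0.999) and for the 5′ arm miR-24 (r = 0.92). The endothelial and platelet list was highest in cow 4 on both diets, at 0.0245% and 0.0122% of the reads. By CPM so was every member, so this is not particular to miR-24-3p and miR-27b. These values are descriptions over few cows whose libraries share depth and scaling.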

How the data were processed

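The authors demultiplexed the libraries with bcl2fastq 2.20, trimmed the reads and assigned them with sRNAbench to bovine and human miRBase names on UMD3.1 (Bowtie, up to 2 mismatches). The deposited library files hold read counts (undivided), expected counts (a read divided over the names it maps to) and scaled reads, a score the authors deposited that served only to recover the reads assigned. The authors' normalized tables were not used. Members and lists were chosen with earlier results of these data known. The members were the listed names of both clusters, and the names most like them were the 3 with the highest r.

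Expected counts were rounded and tested with edgeR 4.0.16 (R 4.3.3; robust quasi-likelihood test, TMM, cow as block, names with at least 10 reads in total, Benjamini-Hochberg over all names). edgeR's test gives no SE, so the SE printed with an edgeR value is the absolute log2 fold change divided by the square root of its F statistic. It is approximate, above all where libraries hold no reads of a name. The scripts were tested on simulated data. Ratios used log2 of divided counts with 0.5 added and exact sign-flip tests adjusted over 7 ratios. The same cows were sampled on both diets, and the number in a sample's title was taken as its cow. Deviations from the diet means correlated at -0.40 to 0.31 within cows and -0.54 to 0.63 between cows in plasma, and at 0.44 to 0.65 and -0.61 to 0.32 in leucocytes, so the profiles do not show the pairing in plasma. Alternatives were DESeq2 1.42.0, other scaling, no filter, undivided counts, no block, a pseudocount of 1 and each cow left out.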

Additional observations from a re-analysis of the deposited data

Results flagged for a closer look

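Of 28 groups of 4 plasma libraries (7 members and 7 ratios on each diet), 3 held a library far from the others by Dixon's test, where chance flags about 1 in 20 groups, or 1.4 here. For hsa-miR-23a-5p on FD the library of cow 4 (236 reads) stood alone against 0 reads in the others, with a gap of 1 time the range. For the 5′ arm bta-miR-24 on FD the library of cow 3 (158 CPM, 414 undivided reads) stood apart from 1.75 to 15.4 CPM, with a gap of 0.913 of the range. For the log2 ratio of miR-27a-3p to miR-27b on FD the library of cow 1, the one with the fewest reads, lay at -1.65 against -1.0 to -0.90, with a gap of 0.859 of the range. What set these libraries apart was not tested.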

How the results depend on the processing

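Of 65 alternative counts 43 stayed within 1.5 times the count reported and 22 did not. Of 464 alternative values of members and ratios, 395 kept their direction and, for members, their side of the threshold. Of the rest, 39 turned direction, 18 passed the threshold newly and 12 no longer passed it. For ratios only the direction was compared, and without the block their mean difference is the same by construction, so these values could not change. Adding bta-miR-10174-3p to miR-23b-3p was chosen after seeing the data. The causes were not tested except where fewer cows remained. With 3 or 4 cows per diet and plasma libraries of as few as 376589 reads, small differences of the members could not be told from spread, and the 5′ arms rest on few reads in plasma.

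DESeq2 called 12 names by diet in plasma, 25 in leucocytes, 239 by sample type on FD and 15 for the difference of the diet effect between sample types. DESeq2's size factors gave 9 by diet in leucocytes, and library size gave 96 by sample type on FD and 208 on HG. Without the replicate block, that is without the pairing by cow, edgeR called 0 names by diet in leucocytes (DESeq2 with the block called 25) and 289 by sample type on FD, and miR-23a-5p by sample type on FD had a log2 fold change of 1.99. In the other comparisons the block moved no count by over 1.5 times. Leaving out 1 cow gave 0 to 102 calls by diet in leucocytes (8 without cow 1, 0 without cow 3 and 102 without cow 4, with 4 members among the last), 0 to 73 by sample type on FD (0, 25 and 73 without cows 1, 3 and 4) and 96 to 125 on HG (96, 125 and 115). The number of ratios that moved alike in all cows ran from 0 to 3 in plasma by diet and from 4 to 7 by sample type.

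With library size the diet log2 fold changes in plasma were 0.19 for miR-27a-3p, 0.011 for miR-27b and 0.16 for miR-24, those by sample type on HG were 1.70 for miR-23b-3p and 1.24 for miR-24, and the differences of the diet effect were 0.16 for miR-23a, 0.14 for miR-23b-3p, 0.39 for miR-27b and 0.37 for miR-24-3p. By sample type on HG miR-23b-3p also had 0.19 with DESeq2, 0.19 with its size factors and 0.037 with undivided reads. With no filter miR-24 had -0.021 by diet in leucocytes. The log2 ratio of miR-23a to miR-23b-3p was 0.010 by diet in leucocytes with bta-miR-10174-3p added and -0.056 by sample type with undivided reads.

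Leaving out 1 cow, the diet values in plasma ran from -1.11 to 0.0089 for miR-23a, from -1.42 to 0.088 for miR-24-3p and from -0.77 to 0.79 for miR-24, and in leucocytes from -0.092 to 0.13 for miR-24. By sample type they ran on FD from -9.89 to 0.49 for miR-23a-5p and from -1.31 to 2.44 for miR-24, and on HG from -0.21 to 0.49 for miR-23a, from -0.21 to 0.12 for miR-23b-3p and from -1.04 to 0.19 for miR-24. The differences of the diet effect ran from -0.95 to 0.39 for miR-23a, from -0.091 to 0.079 for miR-27b, from -1.12 to 0.92 for miR-24-3p and from -1.57 to 0.80 for miR-24. The log2 ratios by diet in plasma ran from -0.28 to 0.45 for miR-23a to miR-23b-3p, from -0.18 to 0.60 for miR-27a-3p to miR-23a, from -0.017 to 0.28 for miR-27b to miR-23b-3p, from -0.37 to 0.21 for miR-24-3p to both miR-23 and from -0.90 to 0.41 for miR-24-3p to both miR-27. In leucocytes they ran from -0.085 to 0.098 for miR-23a to miR-23b-3p and from -0.049 to 0.086 for miR-24-3p to both miR-27. By sample type they ran from -0.14 to 0.52 for miR-23a to miR-23b-3p and from -1.17 to 0.43 for miR-23a-5p to miR-23a.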

Other observations

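Other arms of the same hairpins were rare. Of 16 further names of the clusters that were looked for, 4 were in the files. bta-miR-27a-5p, the passenger arm of miR-27a, had 165 to 182 undivided reads in FD leucocytes and 82 to 144 in HG leucocytes, and 4 to 173 and 9 to 21 in FD and HG plasma. As a share of both arms it made up 0.181% ± 0.0882 on FD and 0.206% ± 0.0620 on HG in leucocytes (SD, n = 3), a difference within its spread. bta-miR-23b-5p had 5 to 14 reads in FD leucocytes, 6 to 7 in HG leucocytes and 2 reads in 1 plasma library, a share of both arms of 0.0152% ± 0.00935 on FD and 0.0116% ± 0.00166 on HG in leucocytes. The other 2 names, hsa-miR-23a-3p and hsa-miR-24-1-5p, held reads shared with bta-miR-23a and bta-miR-24.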
